A study of Mus musculus with 13 samples.

Results

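TRAV16 is a small family of variable genes of the T cell receptor α (TCRα) chain, and the clonotypes described here are the functional TCRα rearrangements assigned to it in redeemed regulatory T (Treg) cells. Members were chosen by name alone: a functional row, whose CDR3 reads through without stop or frameshift, and a V name with the number 16 and no DV element. 542 of 78521 functional clonotypes met this rule, and every one carried the same V name, TRAV16N. The plain name TRAV16 was given to 0 of 90369 rows, and the other gene copy with this number, TRAV16D-DV11, was kept apart as a comparison, with 1469 functional clonotypes. A further 42 TRAV16N rows were non-functional and lay outside the rule. The family was picked because an earlier look at these data had it at a higher share at 7 than at 1.5 months, so that contrast is given as values without a test.

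All 13 samples were TCRα libraries of GFP+ rescued Treg cells sorted from pooled spleen and lymph nodes of male C57BL/6 mice with the genotype Foxp3LSL/yCd4creERT2. In these mice the Foxp3 gene is silenced by a removable STOP cassette, and a tamoxifen-activated Cre, expressed in CD4 cells, restores it. All mice received 4-hydroxytamoxifen (4-OHT) once, on postnatal day 14. Cells were taken 1.5 months later (n = 2, age 8 weeks), 3 months later (n = 4, age 3.5 months), 5 months later (n = 2, age 5.5 months) or 7 months later (n = 5, age 7.5 months). Age and time since treatment cannot be told apart, and no untreated sample was analysed here. The labels do not say whether each sample came from its own animal, so p-values measure the spread between these samples, which may in part be technical.

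The TCRα chain is assembled in the thymus by joining 1 TRAV gene to 1 TRAJ gene. The V gene encodes the CDR1 and CDR2 loops and the first residues of CDR3, whereas the centre of CDR3 is formed at the junction, where bases are trimmed and added at random. The J genes lie in a row downstream of all V genes, with the highest numbers nearest to the V genes, and a cell may replace a first join by a later one that uses a V gene further upstream and a J gene further downstream. In the mouse, a large block of V genes has been copied in tandem, which is why many TRAV genes exist in near-identical copies marked D and N.

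The 3 copies of the number 16 lie in order towards the J genes on chromosome 14 of GRCm38. Trav16d-dv11 (ENSMUSG00000076796.1) is annotated at chr14:53047287-53047821, Trav16n (ENSMUSG00000076822.2) at chr14:53351028-53351621 and Trav16 (ENSMUSG00000076855.5) at chr14:53743104-53743705. All bases compared are exonic. Over 293 aligned transcript bases, TRAV16N differed from TRAV16D-DV11 at 3 bases and from TRAV16 at 4. The last 110 bases of each are shown because they decide how the copies can be told apart. Capitals mark the bases that differ among the 3 copies, and the final 17 bases, which start CDR3, were identical.

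TRAV16D-DV11: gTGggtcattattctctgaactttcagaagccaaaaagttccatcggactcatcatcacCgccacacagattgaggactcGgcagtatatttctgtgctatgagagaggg
TRAV16N: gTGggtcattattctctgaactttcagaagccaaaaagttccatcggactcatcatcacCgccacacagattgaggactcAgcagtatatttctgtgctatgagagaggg
TRAV16: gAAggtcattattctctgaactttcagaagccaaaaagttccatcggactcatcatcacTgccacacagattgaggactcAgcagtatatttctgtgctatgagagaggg

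The base nearest to CDR3 that separated TRAV16N from TRAV16D-DV11 lay 13 bases before it, and the nearest that separated TRAV16N from TRAV16 lay 34 bases before it. No base within CDR3 separates the copies. The V name therefore rests on the part of the read before CDR3, which the deposited tables do not hold, and assignments among the 3 copies are uncertain.

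The largest TRAV16N clonotype of each time point is shown next, with the bases that match the germline V gene without interruption in capitals. The clonotypes differ in how much of the V gene end they kept, from 12 to all 17 bases.

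TRAV16N with TRAJ22, at 1.5 months: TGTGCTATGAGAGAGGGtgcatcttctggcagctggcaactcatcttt
TRAV16N with TRAJ40, at 3 months: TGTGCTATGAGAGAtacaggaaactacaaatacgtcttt
TRAV16N with TRAJ18, at 5 months: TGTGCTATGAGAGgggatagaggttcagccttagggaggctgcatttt
TRAV16N with TRAJ38, at 7 months: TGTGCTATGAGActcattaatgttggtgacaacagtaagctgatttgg

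Total counts ranged from 509818 to 936831 per sample and functional clonotypes from 4828 to 7998. Rearrangements typical of other cells were rare. TRAV11 joined to TRAJ18, the type I NKT receptor, made up 0 to 0.117% of functional counts. TRAV1 joined to TRAJ33, the MAIT receptor, made up 0 to 0.128% of them. TRD segments of γδ T cells held 0.0156 to 0.0739% of total counts, non-functional rows included. No pair of libraries held identical values. The most alike were replicate 4 at 3 months and replicate 1 at 5 months, which shared 6.24% of their combined clonotypes.

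TRAV16N made up less than 1% of functional clonotypes in every sample, with 28 to 56 clonotypes per sample. At 1.5 months its share of functional clonotypes was 0.700% and 0.600%. At 3 months the shares were 0.563%, 0.771%, 0.703% and 0.571%. At 5 months they were 0.520% and 0.911%, the lowest and the highest value of the series. At 7 months they were 0.849%, 0.755%, 0.587%, 0.655% and 0.865%, so that 3 of 5 samples lay above both 1.5 month samples, 1 lay between them and 1 lay below them. With SDs, the means were 0.650% ± 0.0706 for the 1.5 month samples and 0.742% ± 0.121 for the 7 month samples.

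**Figure D1:**
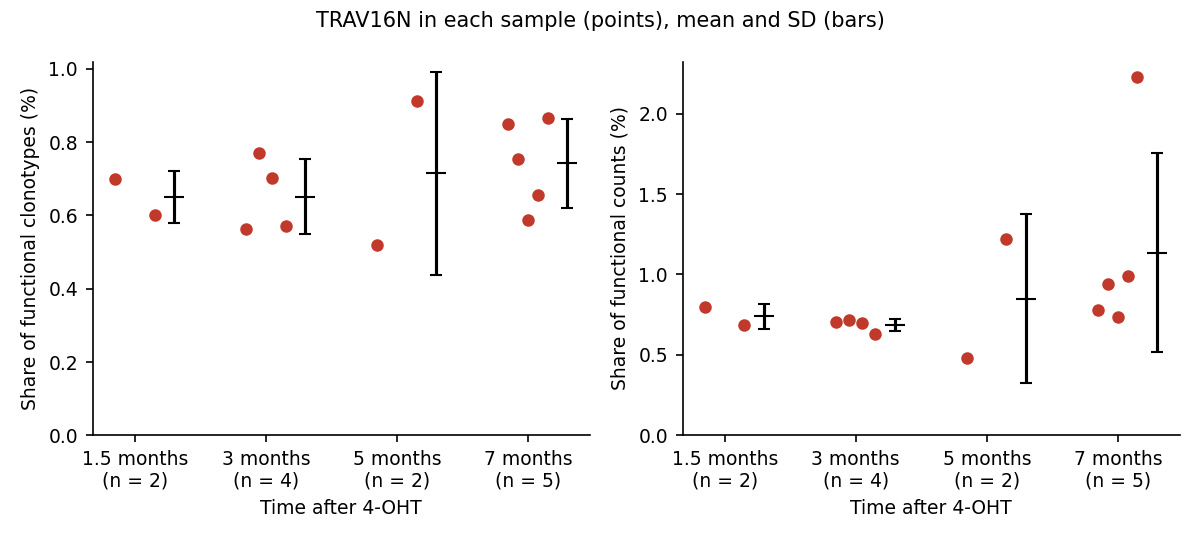
TRAV16N in each sample by time after 4-OHT, as a percentage of functional clonotypes (left) and of functional counts (right). Points are samples, and bars give the mean and SD. Shares of clonotypes overlap among all 4 time points, and 1 sample at 7 months stands at 2.23% of counts.

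On the scale of clonotype numbers, the log2 difference of 7 over 1.5 months was 0.18 with a standard error (SE) of 0.22. This difference was 0.30 without replicate 1 and 0.083 without replicate 2 at 1.5 months, and 0.62 by summed counts. The groups overlapped. Differences that share samples with it are likewise given as values, with -0.0048 (SE 0.23) for 3 over 1.5 months, 0.12 (SE 0.28) for 5 over 1.5 months and 0.19 (SE 0.18) for 7 over 3 months. The comparison of 5 with 3 months is the one that the choice of the family did not use. There the log2 difference was 0.12 (SE 0.25), with an adjusted p of 0.805 in edgeR over 19 V families. Neither TRAV16 nor any other of the 19 families was called in that comparison (0%), and none reached an unadjusted p of 0.05 or was called by DESeq2. The direction was not stable. The log2 difference was -0.33 without replicate 2 at 5 months, -0.041 with a minimum of 2 counts and -0.037 with TRAV16D-DV11 added.

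TRAV16D-DV11, which the rule leaves out, had the larger share of clonotypes in every sample. It was 1.75% and 1.55% at 1.5 months and 1.86%, 2.08%, 2.10%, 2.12% and 1.88% at 7 months, so that these groups did not overlap. By counts they did overlap, with 1.73% and 1.11% of functional counts at 1.5 months and 1.37% to 1.70% at 7 months, and TRAV16N held the larger share of counts in replicate 2 at 5 months and replicate 5 at 7 months. With both copies counted, the shares were 2.45% and 2.15% at 1.5 months against 2.70%, 2.83%, 2.68%, 2.78% and 2.74% at 7 months, again without overlap, and the log2 difference was 0.25 (SE 0.10). The 7 month samples were not apart from those of 3 months, where replicate 3 stood at 2.09% for TRAV16D-DV11 and 2.79% for both copies. The other samples at 3 months stood at 2.46%, 2.42% and 2.42% for both copies. At 5 months the shares were 1.82% and 1.74% for TRAV16D-DV11 and 2.34% and 2.65% for both copies. The lower of each lay within the range at 1.5 months. The value for both copies contains the TRAV16N shares, on which the family was picked. With 2 against 5 samples, groups can also stand apart by chance. In how many other V families these 2 time points stood apart was not counted, so no conclusion is drawn from the missing overlap. The part of both copies that was named TRAV16N did not set the time points apart. It was 28.6% and 27.9% at 1.5 months and ranged from 21.9% to 31.5% at 7 months.

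By counts, TRAV16N took up 0.795% and 0.683% of functional counts at 1.5 months. The shares were 0.706%, 0.714%, 0.701% and 0.632% at 3 months and 0.479% and 1.22% at 5 months. At 7 months they were 0.782%, 0.940%, 0.738%, 0.988% and 2.23%. The highest of these came from replicate 5, where 5924 of 11848 TRAV16N counts belonged to 1 clonotype. Without the largest TRAV16N clonotype of each sample, a comparison added after the values were seen, the shares were 0.720% and 0.559% at 1.5 months and 0.586% to 1.11% at 7 months, and the mean difference fell from 0.396 to 0.115 percentage points. These counts cannot tell more cells with a receptor from more TCRα RNA per cell.

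TRAV16N joined J genes that lay, on average, nearer to the V end of the J cluster than those of other clonotypes. The mean TRAJ number of TRAV16N clonotypes was 38.7 ± 2.17 (SD, n = 13) against 27.5 ± 0.334 for all other TRAV clonotypes of the same samples and 22.7 ± 1.34 for TRAV16D-DV11. It was higher than in all other clonotypes in 13 of 13 samples (mean difference 11.2, two-sided exact sign-flip permutation test over samples, adjusted p = 5.49e-04), and the unadjusted p of 2.44e-04 is the smallest that 13 samples can give. It was also higher than in TRAV16D-DV11 in 13 of 13 samples (adjusted p = 4.88e-04, same test). Comparisons with TRAV16D-DV11 by this test were added after the values were seen and are adjusted over 8 values of their own. Against the 3 V families nearest to TRAV16 in clonotype number, TRAV1, TRAV11 and TRAV19, the mean difference was smaller, at 4.03 (adjusted p = 0.00260, same test). These families lie on both sides of TRAV16N, with mean TRAJ numbers of 23.1 for TRAV1, 28.0 for TRAV11 and 49.2 for TRAV19. The offset was present at each time point, with mean differences from all other clonotypes of 10.1 at 1.5 months, 10.7 at 3 months, 13.1 at 5 months and 11.2 at 7 months.

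By section of the J cluster, TRAJ41 and higher numbers, the V-proximal section, held 48.8% ± 7.67 (SD, n = 13) of TRAV16N clonotypes, from 34.1% to 60.6% per sample. The same section held 18.6% ± 0.794 of all other clonotypes and 7.19% ± 1.82 of TRAV16D-DV11. For J gene use and CDR3 length, all other clonotypes (77886) include those of TRAV16D-DV11. TRAJ2 to TRAJ20, the section nearest to the constant gene, held 9.39% ± 2.51 of TRAV16N clonotypes against 31.6% ± 1.10 of all others and 40.7% ± 6.83 of TRAV16D-DV11. The ranges over samples did not overlap between TRAV16N and either comparison in these 2 sections. The middle section, TRAJ21 to TRAJ40, differed less, with 41.8% ± 7.50, 49.7% ± 0.728 and 52.1% ± 6.67.

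**Figure D2:**
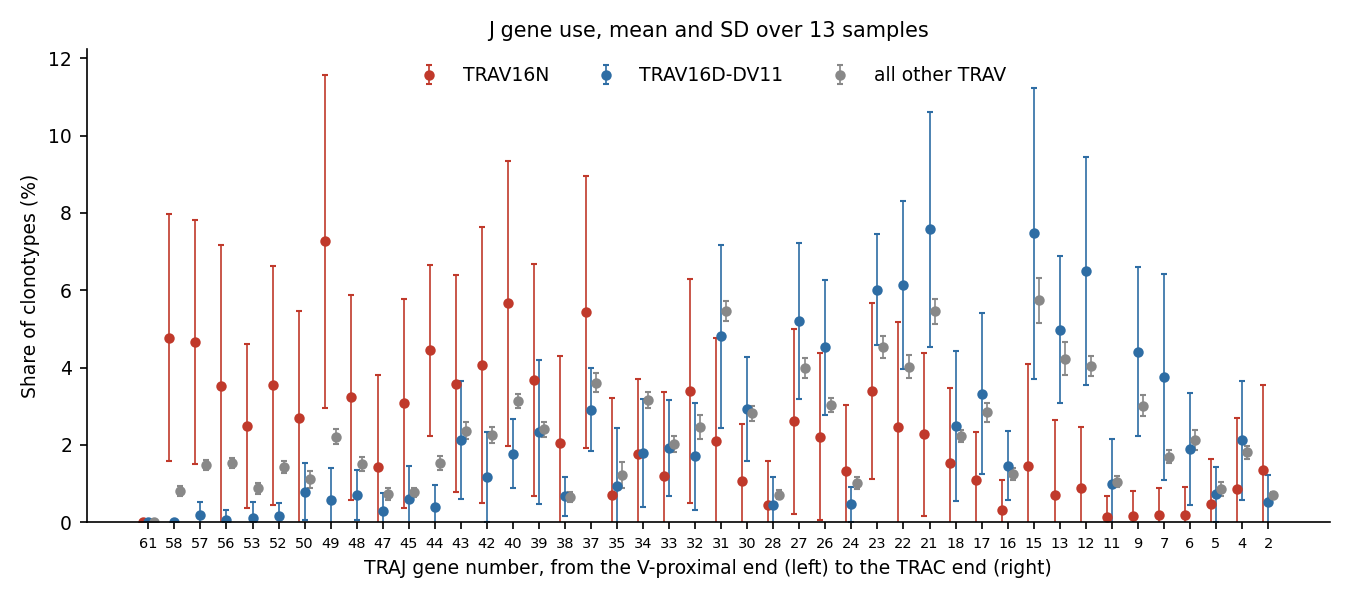
Share of clonotypes (%) that use each TRAJ gene, ordered from the V-proximal end (left) to the constant gene (right), for TRAV16N, TRAV16D-DV11 and all other TRAV clonotypes. All other clonotypes include those of TRAV16D-DV11. Points are means and bars SDs over 13 samples, cut at 0. TRAV16N lies above the others at TRAJ44 to TRAJ58 and below them at TRAJ6 to TRAJ15.

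Of 43 J genes tested, 12 were used more often by TRAV16N than by all other clonotypes (27.9%) and 11 less often (25.6%), at an adjusted p under 0.05 in edgeR with the sample as a block. In the V-proximal section 10 of 13 J genes were called, all higher, and in the section nearest to the constant gene 8 of 13 were called, all lower. Of the 17 in the middle section, 2 were higher and 3 lower. The split depended on the scaling, since TMM normalization gave 4 higher and 23 lower, with the median J gene moved from a log2 difference of -0.41 to -1.37. DESeq2 gave 1 higher and 24 lower of 44 J genes, with a median of -1.72, but its size factors rested on TRAJ44 alone, the 1 J gene without a 0 in all 26 columns, so that these values are relative to TRAJ44. DESeq2 with library totals, added after the values were seen, gave 13 higher and 10 lower, and all 20 J genes named here kept their call. Against the same 3 V families, of which TRAV19 used higher TRAJ numbers than TRAV16N, without a filter, 5 were higher and 1 lower.

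TRAJ58 had the lowest p among those higher. It was joined in 26 of 542 TRAV16N clonotypes, with a share of 0 to 9.09% per sample and a median of 5.00%, against 0.609 to 1.08% of all others (log2 difference 2.57, SE 0.37, adjusted p = 7.91e-10, edgeR). It occurred in 0 of 1469 TRAV16D-DV11 clonotypes, which allows a share of up to 0.204% at 95% confidence if clonotypes are independent. They are not fully so, since these 1469 held 1193 distinct nucleotide sequences over the samples. TRAJ49 was the J gene most often joined, in 38 clonotypes, with a share of 0 to 15.2% per sample and a median of 6.82%, against 1.91 to 2.57% of all others (log2 difference 1.66, SE 0.29). TRAJ44 was the 1 called J gene present in TRAV16N in 13 of 13 samples, at 2.27 to 7.69%, and lay above all others in each of them (log2 difference 1.54, SE 0.35). With DESeq2 and library totals the log2 differences of TRAJ58, TRAJ49 and TRAJ44 were 2.54, 1.66 and 1.53. With DESeq2's own size factors, which give values relative to TRAJ44, TRAJ58 was at 1.04 and TRAJ49 at 0.21. TRAJ49 did not pass there (adjusted p = 0.656 in DESeq2). With TMM in edgeR, TRAJ58 and TRAJ49 kept the call at 1.61 and 0.70. TRAJ44 did not pass with TMM (0.59, adjusted p = 0.116 in edgeR), nor TRAJ58 against the 3 nearest V families (0.72, adjusted p = 0.247 in edgeR), where 7 of the 10 lost the call and TRAJ49, TRAJ44 and TRAJ45 kept it. TRAJ38 was among those lost at a log2 difference of 1.66 (SE 0.64, adjusted p = 0.0588 in edgeR), close to the 1.63 against all others. By summed counts all 10 lost it. TRAJ58, TRAJ49 and TRAJ44 illustrate the precision of single J genes, since 1 clonotype in a sample of 28 to 56 moves a share by about as much as the whole share of a J gene elsewhere.

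The other J genes named as higher were TRAJ57, TRAJ45, TRAJ52, TRAJ56, TRAJ53, TRAJ38 and TRAJ50, with log2 differences between 1.27 for TRAJ56 and 1.85 for TRAJ45. With TMM in edgeR, TRAJ52, TRAJ53, TRAJ56, TRAJ50 and TRAJ38 stayed positive without passing the test (0.47, 0.51, 0.31, 0.36 and 0.66). Relative to TRAJ44, as DESeq2's own size factors give them, the first 4 of these were at -0.15, -0.024, -0.33 and -0.26. Against the 3 nearest V families the direction turned for TRAJ57 (-0.61), TRAJ56 (-0.85) and TRAJ53 (-0.16). By summed counts it turned for TRAJ38 (-4.13), TRAJ53 (-2.89), TRAJ56 (-1.97), TRAJ50 (-1.51) and TRAJ52 (-0.27), where the median J gene was at -3.78. TRAJ38 was joined in 11 clonotypes and is also the J gene of the largest TRAV16N clonotype. TRAJ38 alone of the 10 did not pass against TRAV16D-DV11 (log2 difference 1.38, adjusted p = 0.0611 in edgeR). Without replicate 2 at 7 months TRAJ50 no longer passed, with an adjusted p of 0.0831 in edgeR.

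TRAJ9 had the lowest p among those lower. It was joined in 1 of 542 TRAV16N clonotypes, at 2.27% of 1 sample and 0 in the other 12, against 2.45 to 3.41% of all others (log2 difference -3.99, SE 0.84, adjusted p = 2.71e-05, edgeR) and 66 of 1469 TRAV16D-DV11 clonotypes. TRAJ15 was joined in 8 TRAV16N clonotypes against 111 of TRAV16D-DV11 and lay below all others in 12 of 13 samples (log2 difference -1.96, SE 0.45). TRAJ6 and TRAJ7 were also joined in 1 TRAV16N clonotype each, with log2 differences of -3.50 and -3.17. The sizes of these 3 differences depended on 1 sample each. TRAJ9 was at -9.53 without replicate 2 at 3 months. TRAJ6 was at -9.01 without replicate 2 at 1.5 months, and TRAJ7 at -8.67 without replicate 1 at 3 months. The remaining named genes, TRAJ13, TRAJ12, TRAJ31, TRAJ21, TRAJ30 and TRAJ17, had log2 differences from -2.52 for TRAJ13 to -1.19 for TRAJ21. Without replicate 2 at 3 months TRAJ13 was at -4.37. Against the 3 nearest V families 9 of the 10 lost the call, among them TRAJ9 (-1.92, adjusted p = 0.122 in edgeR) and TRAJ15 (-1.37, adjusted p = 0.0782), and TRAJ6 kept it. TRAJ21 also did not pass with a minimum of 10 counts (-0.90, adjusted p = 0.0562) or by summed counts. All 10 were also lower than in TRAV16D-DV11 under the same test.

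Against TRAV16D-DV11 as a whole, a comparison added after the values were seen and run without a filter, 13 of 43 J genes were higher in TRAV16N (30.2%) and 13 lower (30.2%). Among them were 11 of the 12 J genes called higher and 10 of the 11 called lower against all others.

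Mean TRAJ number rose along the part of the locus nearest to the J genes. Over 89 V genes with at least 100 clonotypes each, the Spearman correlation of position with mean TRAJ number was 0.675, given as a description across genes that share libraries and a locus. It was 0.903 over the 38 V genes nearer to the J cluster than Trav16n and -0.361 over the 50 further away, which ranged from 19.4 to 29.0. For each copy, the 2 nearest of these V genes on either side were set beside it. The 4 neighbours of Trav16n, TRAV13N-3, TRAV8N-2, TRAV13N-4 and TRAV14N-3, had mean TRAJ numbers of 23.7, 22.5, 24.8 and 24.2. Clonotypes named TRAV16N, at 38.7, lay above all 4. The 4 neighbours of Trav16, TRAV7-6, TRAV13-3, TRAV13-4-DV7 and TRAV14-3, had 40.8, 28.4, 45.7 and 42.3, so that TRAV16N lay above TRAV13-3 and below the other 3. The 4 neighbours of Trav16d-dv11 had 19.8 to 22.4, and TRAV16D-DV11 itself 22.7. Trav16n lies 803 kb from the J cluster and Trav16 411 kb.

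**Figure D3:**
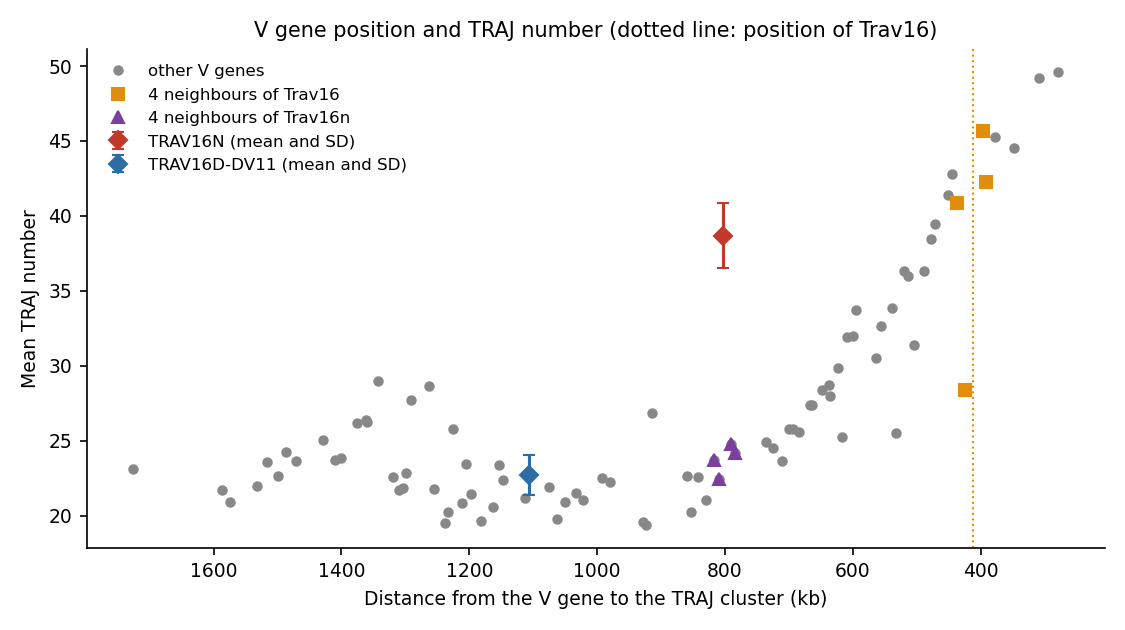
Mean TRAJ number (mean over samples) of 89 V genes against the distance in kb from the V gene to the TRAJ cluster, with the J cluster to the right. TRAV16N (red, mean and SD over 13 samples) is drawn at the annotated place of Trav16n, where it stands at 38.7 above its 4 neighbours at 22.5 to 24.8. The dotted line marks Trav16, 411 kb from the J cluster.

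CDR3 loops of TRAV16N were long. Their mean length was 15.1 residues ± 0.129 (SD, n = 13), from 14.9 to 15.4 per sample, against 13.5 ± 0.0236 for all other TRAV clonotypes, from 13.4 to 13.5. The difference of 1.65 residues was seen in 13 of 13 samples (two-sided exact sign-flip permutation test, adjusted p = 5.49e-04). All TRAV16N CDR3s had 11 to 18 residues, 220 of 542 had 15, and 35.1% had 16 or more against 5.58% of all others. TRAV16D-DV11, with the same germline end, was shorter at 14.4 residues, a difference of 0.714 ± 0.194 (SD, n = 13) in 13 of 13 samples (adjusted p = 4.88e-04, exact permutation test as above).

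Length was also compared within J genes, since J genes differ in length. Set against clonotypes of the same J gene and sample, TRAV16N was 1.38 residues longer than all others ± 0.127 (SD, n = 13), in 13 of 13 samples. Set against TRAV16D-DV11 clonotypes of the same J gene, which 516 of 542 had, the difference was 0.266 ± 0.157, in 12 of 13 samples, smaller than the 0.714 seen over all J genes.

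**Figure D4:**
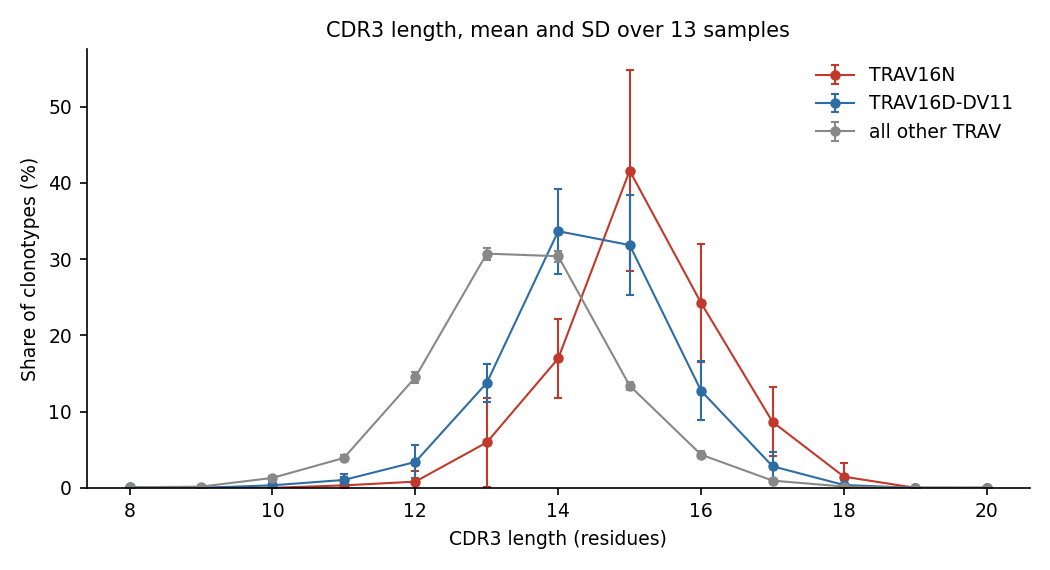
Share of clonotypes (%) by CDR3 length in residues, for TRAV16N, TRAV16D-DV11 and all other TRAV clonotypes, as mean and SD over 13 samples. TRAV16N peaks at 15 residues, and all other clonotypes, which include TRAV16D-DV11, at 13 and 14.

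The V gene contributed more bases to the junction than in other clonotypes, 15.8 ± 0.302 (SD, n = 13) against 12.2 ± 0.0434, in 13 of 13 samples (adjusted p = 5.49e-04, same test). Full retention was common. 238 of 542 TRAV16N clonotypes (43.9%) kept all 17 germline bases of CDR3, 81 stopped at base 13 and 70 at base 15. The 17 bases translate to CAMRE and the start of a glycine codon, and the starts of the loops followed from this. 94.6% of TRAV16N CDR3s began with CAMR, 69.7% with CAMRE and 44.3% with CAMREG. For TRAV16D-DV11 these were 88.6%, 65.7% and 37.6%. Among the 76417 other TRAV clonotypes, here without TRAV16D-DV11, they were 0.362%, 0.0327% and 0.00393%. For 147 TRAV16N clonotypes the deposited end of the V part lay past the last germline base of the annotation. V-derived and inserted bases are therefore as the authors' caller gave them. A base added at such a junction can be counted as V-derived and not as inserted. How often this happened in the comparison clonotypes was not counted.

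By the caller's V and J positions, added bases were fewer than in other clonotypes by a small margin. TRAV16N junctions had 1.89 ± 0.342 inserted bases (SD, n = 13) against 2.16 ± 0.0503, lower in 10 of 13 samples (difference -0.266, adjusted p = 0.0213, same test). This difference did not pass with a minimum of 2 or of 10 counts per clonotype, weighted by counts (-0.103) or against the 3 nearest V families (-0.126). 177 of 542 (32.7%) had no inserted base, and the mean share per sample of 32.7% ± 5.83 against 30.9% ± 0.971 did not pass the test (adjusted p = 0.318, permutation as above, higher in 8 of 13 samples). TRAV16D-DV11 had fewer insertions than TRAV16N, with 1.57 ± 0.218 bases (adjusted p = 0.0186, permutation as above), and more junctions without any, at 40.5% ± 4.35 (adjusted p = 0.00430). Among clonotypes of the same J gene neither difference had a steady direction. There TRAV16N had 0.0435 ± 0.396 more inserted bases (SD, n = 13), higher in 7 and lower in 6 samples, and its share without any was lower by 1.60 ± 5.92 percentage points, in 8 of 13 samples. Its V-derived bases, 15.4 ± 0.318, did not pass a difference from TRAV16N (adjusted p = 0.0580, permutation as above). They did pass without replicate 3 at 3 months (difference 0.383, adjusted p = 0.0151, same permutation test) and without replicate 5 at 7 months (0.368, adjusted p = 0.0318). A further cysteine inside the loop, a feature linked in the field to self-reactive receptors, was found in 4 TRAV16N CDR3s (0.738%) against 1.23% of all others.

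The typical TRAV16N clonotype was larger than other clonotypes of its sample. The median TRAV16N clonotype held 0.00865 to 0.0187% of functional counts per sample, and the median of all other TRAV clonotypes 0.00677 to 0.0131%. The ratio of the medians was 1.12 to 1.96, above 1 in 13 of 13 samples (mean log2 ratio 0.52 ± 0.25 (SD, n = 13), two-sided exact sign-flip permutation test, adjusted p = 5.49e-04). Against TRAV16D-DV11 the ratio was 1.14 to 2.32, also above 1 in 13 of 13 (mean log2 ratio 0.64, adjusted p = 4.88e-04, same test), and with a minimum of 10 counts the mean log2 ratio was 0.19 (adjusted p = 0.0277). With a minimum of 2 counts per clonotype the mean log2 ratio to all others was 0.27, and with a minimum of 10 counts 0.16 (adjusted p = 0.0470, same test). Of the 542 members, 65 had 1 count and 91 had fewer than 10.

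The share of counts over the share of clonotypes gives the mean size of a clonotype relative to the repertoire. Its log2 was 0.27 ± 0.40 (SD, n = 13), above 0 in 9 of 13 samples (adjusted p = 0.0183, same test). It ranged from -0.12 to 1.37, and the highest value came from replicate 5 at 7 months. Without that sample the mean was 0.18 and still passed. It did not pass with a minimum of 2 or 10 counts, by amino-acid clonotypes (0.20, adjusted p = 0.0957, same test), nor against the 3 V families nearest in size. For the 3 families and for TRAV16D-DV11, both shares were taken over TRAV16N and the comparison clonotypes together. Within TRAV16N and TRAV16D-DV11 together the log2 for TRAV16N was 0.38 ± 0.27 (SD, n = 13), above 0 in 13 of 13 samples (adjusted p = 4.88e-04, exact permutation test as above). It was 0.23 with a minimum of 10 counts (adjusted p = 0.00977, same test).

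10 TRAV16N clonotypes exceeded 0.1% of the functional counts of their sample, 1.85% of the members against 1.57% of all functional clonotypes. 1 of 95 clonotypes did so at 1.5 months, 1 of 165 at 3 months, 2 of 72 at 5 months and 6 of 210 at 7 months. Among all functional clonotypes the share above 0.1% was 0.924%, 1.31%, 2.28% and 1.87% at these time points. The 6 at 7 months came from 3 of 5 samples. Per sample, the share above 0.1% was 1.80% ± 2.32 (SD, n = 13) against 1.63% ± 0.501 and did not pass the test (adjusted p = 0.770, permutation as above). The difference turned negative without replicate 4 (-0.135 percentage points) or 5 (-0.124) at 7 months and with a minimum of 10 counts (-0.0483). It was also negative by amino-acid clonotypes (-7.73e-04) and against the 3 nearest V families (-0.152).

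The largest was the TRAJ38 clonotype of replicate 5 at 7 months, printed above, with 5924 counts or 1.11% of functional counts (95% Wilson interval 1.09 to 1.14%, counting error only). It ranked 6 of 6129 in its sample, kept 12 germline V bases and had 5 inserted bases. The same nucleotide sequence occurred in 3 other samples at no more than 3 counts. Replicate 5 also held a TRAJ2 clonotype of 17 residues at 0.397% and a TRAJ18 clonotype of 16 residues at 0.191%.

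The largest at 5 months, with TRAJ18, held 0.345% in replicate 2 and ranked 7. By the caller's positions it had no inserted base. The largest at 1.5 months, with TRAJ22, held 0.124%, and the largest at 3 months, with TRAJ40, 0.120%. These 2 also had no inserted base, and each was found in 3 other samples, at up to 59 and 53 counts. In other libraries 15 members (2.77%) occurred at least 100 times more abundantly, against 3.15% of all functional clonotypes.

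Most TRAV16N CDR3s were private to 1 sample. Of 445 distinct amino-acid sequences, 381 (85.6%) were found in 1 sample, 46 in 2, 11 in 3, 6 in 4 and 1 in 5. Of all other CDR3s 76.3% were found in 1 sample and 14.2% in 2. Per sample, 29.5% ± 8.79 (SD, n = 13) of TRAV16N CDR3s, from 18.2% to 46.4%, also occurred in another sample with the same V family. For all other clonotypes this was 47.2% ± 3.44 and for TRAV16D-DV11 43.4% ± 5.65. The TRAV16N share lay below that of all others in 13 of 13 samples. A match needed the same V family, and families differ in clonotype number, so family size can enter these shares. Sharing was not compared with the 3 V families nearest in clonotype number. Overlaps between samples depend on each other, so no test was made.

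**Figure D5:**
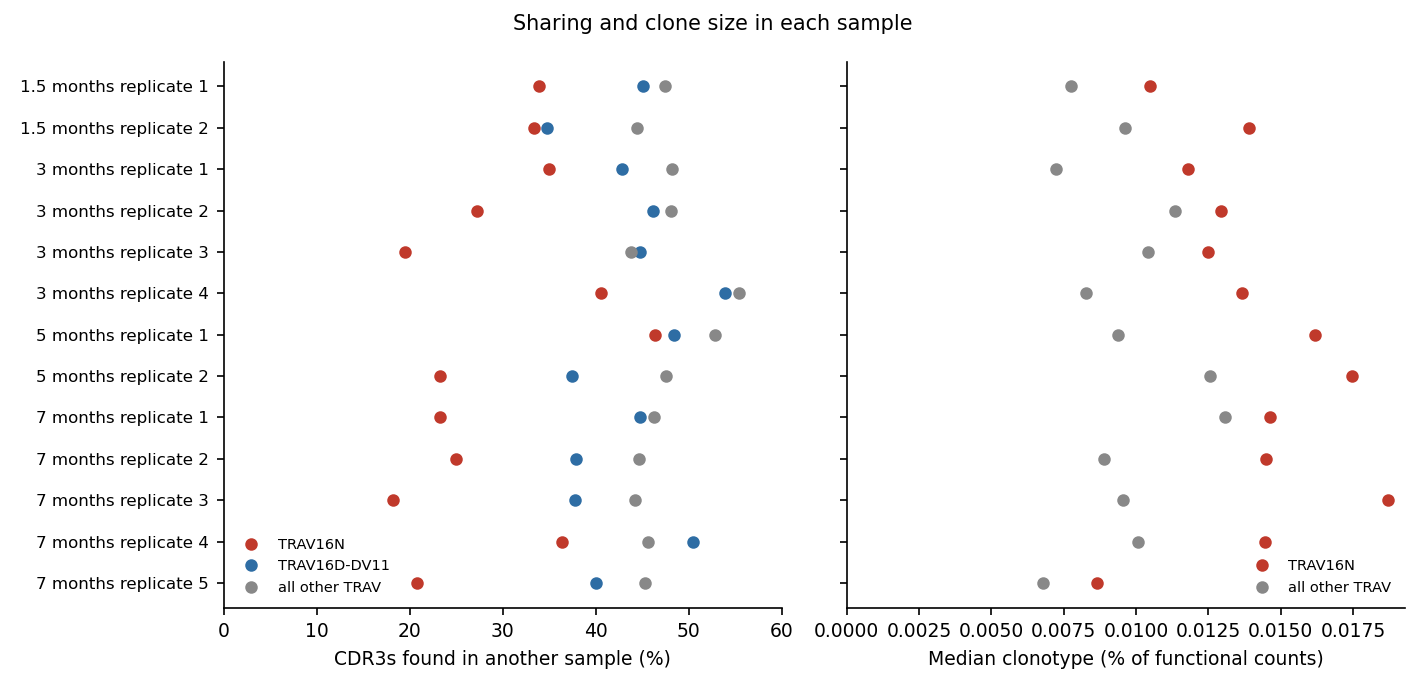
Left, share of CDR3 amino-acid sequences (%) also found in another sample, for TRAV16N, TRAV16D-DV11 and all other TRAV clonotypes, with 1 row per sample. Right, median clonotype as a percentage of functional counts. TRAV16N lies left of all other clonotypes in the left panel and right of them in the right panel in 13 of 13 samples.

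The lower sharing depended on how a match was defined. By nucleotide sequence, 21.2% of TRAV16N and 24.5% of all other clonotypes were shared, with TRAV16N lower in 10 of 13 samples. With a match to TRAV16D-DV11 also counted as shared, an alternative added after the values were seen, 42.3% ± 7.79 of TRAV16N CDR3s were shared against 47.3% ± 3.44, lower in 10 and higher in 3 of 13 samples. Both copies held many of the same CDR3s. 95 of the 445 TRAV16N amino-acid sequences (21.3%) also occurred under TRAV16D-DV11, which is 9.47% of its 1003. By nucleotide sequence 62 of 482 did (12.9%), which is 5.20% of 1193 for TRAV16D-DV11.

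Found in most samples were 1 CDR3 in 5 samples and 6 in 4. The first and the 5 of the 6 with the highest mean share of functional counts are shown as 1 nucleotide version each, the one found in most samples (the first in alphabetical order where tied), since they show how much of the V gene end these loops kept. Capitals mark the germline V bases.

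TRAJ49 loop: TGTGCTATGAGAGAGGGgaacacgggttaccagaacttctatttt
Shorter TRAJ57 loop: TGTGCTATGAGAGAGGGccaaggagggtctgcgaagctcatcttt
TRAJ44 loop: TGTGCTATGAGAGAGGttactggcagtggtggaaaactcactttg
TRAJ58 loop: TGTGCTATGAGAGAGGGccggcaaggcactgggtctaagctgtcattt
Longer TRAJ57 loop: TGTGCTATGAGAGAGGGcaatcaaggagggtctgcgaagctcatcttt
TRAJ43 loop: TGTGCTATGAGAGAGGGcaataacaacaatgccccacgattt

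The TRAJ49 loop occurred in 5 samples, of 1.5, 3 and 5 months, in 3 nucleotide versions and at 2 to 186 counts. Among these samples were replicate 1 at 1.5 months, replicate 4 at 3 months and replicate 1 at 5 months. They form the 2 most alike pairs of libraries, which shared 6.24% and 5.59% of their combined clonotypes. The other 5 shown occurred in 4 samples each. The shorter TRAJ57 loop reached 394 counts, or 0.0583%, the highest of the 6 shown, so that none of those shown was among those above 0.1%. The TRAJ44 loop had 1 nucleotide version in all 4 samples, and 1 of these held a single count. The TRAJ43 loop was also found under TRAV16D-DV11 in 5 samples and the TRAJ49 loop in 1, whereas the other 4 were found there in none. Of the 13 nucleotide versions, 12 kept all 17 germline bases.

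Non-functional rearrangements make no receptor, and their V gene use is set here beside that of functional ones. They were read from RNA, so their number may not follow how often a V gene was joined. TRAV16N made up 0.106 to 0.803% of non-functional TRAV rows per sample, on 1 to 6 rows each, against 0.520 to 0.913% of functional TRAV clonotypes. The functional share was higher by 0.345 ± 0.274 percentage points (SD, n = 13), in 12 of 13 samples (two-sided exact sign-flip permutation test, adjusted p = 0.00308). The exception was replicate 4 at 7 months. Put the other way, 7.46% ± 4.37 of TRAV16N rows were non-functional against 13.2% ± 0.643 of other TRAV rows. Over all samples, 542 of 584 TRAV16N rows and 1469 of 1633 TRAV16D-DV11 rows were functional.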

How the data were processed

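TCRα libraries of 13 samples were made by 5′ RACE and sequenced on a MiSeq. The authors aligned reads to mouse V, D and J genes and assembled clonotypes with MiXCR, then dropped near-identical smaller clonotypes with VDJtools, per the study's methods. The deposited tables give, per clonotype, its count, the fraction of the sample's counts, its CDR3, V and J names, and other values, namely the positions where the V part ends and the J part starts. Whether a count is a read or a barcoded molecule, and which copies of the number 16 the V reference held, is not given in the sources used here. Non-functional rows were still present and held 5.83 to 7.74% of counts. The processing notes name GRCm38, and gene positions and germline bases came from GENCODE M21 of that build.

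The members and all lists were chosen with earlier results of these data known. Clonotype numbers per V family were fitted with edgeR 4.0.16 in R 4.3.3 (quasi-likelihood test, filterByExpr, TMM, 4 time points, 13 samples), and Benjamini-Hochberg adjusted over all 19 families. J genes were tested in the same way with TRAV16N and all other TRAV clonotypes as 2 columns per sample and the sample as a block. TMM had been designed for this fit too, but on simulated data without differences it made calls in 75% of 20 simulations, so library totals were used, which made none. With 5 J genes changed 3-fold, 78% were recovered, and with 2-fold changes 17%. Of the calls made there, 18.8% and 10.5% were on J genes that had not been raised, more than the 5% aimed at. The shares of these fell as the 5 rose, so such calls may not all be errors. In simulated families at 5 against 3 months, 2-fold changes were recovered in 100% and 1.5-fold changes in 40%. There 14.9% and 17.2% of calls were on families that had not been raised. All simulated counts had counting error only, without further spread between samples, so these rates may not hold for the real samples. Single values were compared by the two-sided exact sign-flip permutation test over 8192 sign patterns of 13 within-sample differences, adjusted over 9 values (8 against TRAV16D-DV11), with Python 3.11.15. Named were up to 10 J genes with the smallest adjusted p under 0.05 in each direction, the largest clonotype of each time point and the 6 CDR3s found in most samples (ties by mean share of functional counts). Alternatives covered tools, scaling, filters, count minimums of 2 and 10, clonotype definitions, equal depth, the replicate number as a block and leaving out each sample. Replicate numbers did not pair samples: over 19 families the correlation of same-numbered deviations was -0.035, from -0.61 to 0.35 over 14 pairs.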

Additional observations from a re-analysis of the deposited data

Results flagged for a closer look

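Of 30 sets of values checked within the 3 month (n = 4) and 7 month (n = 5) samples, 4 held a sample far from the others of its group, where chance gives about 1 in 20. The TRAV16N share of counts in replicate 5 at 7 months was 2.23%, with the next sample at 0.988%. The largest TRAV16N clonotype of the same sample held 1.11% of functional counts, with the next at 0.354%. At 3 months the share of counts in replicate 4 was 0.632%, below the next at 0.701%. Also at 3 months, the share of TRAV16N clonotypes above 0.1% of counts exceeded that of other clonotypes by 1.10 percentage points in replicate 1, which held 1 such clonotype, with the next sample at -1.17.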

How the results depend on the processing

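Mean CDR3 length, V-derived bases, mean TRAJ number, the ratio of median clonotype shares and the functional share kept direction and call in all alternatives run for them (18 or 19 each). At 5 over 3 months the log2 difference of TRAV16 was -0.041 with a minimum of 2 counts, -0.037 with TRAV16D-DV11 added, 0.51 by summed counts, -0.33 to 0.50 when leaving out each sample, and 0.012 (adjusted p = 0.996 in edgeR) with the replicate number as a block. At 7 over 1.5 months it was 0.62 by summed counts, 0.22 with the replicate block and 0.083 to 0.30 when leaving out each sample. Inserted bases no longer passed with a minimum of 2 (-0.166) or 10 counts (-0.166), weighted by counts (-0.103) or against the 3 nearest V families (-0.126). The log2 share of counts over clonotypes no longer passed with a minimum of 2 (0.19) or 10 counts (0.11), by amino-acid clonotypes (0.20) or against the nearest families (0.13). The share without inserted bases reversed against the nearest families (-4.60 percentage points). The share above 0.1% reversed with a minimum of 10 counts (-0.0483), by amino-acid clonotypes (-7.73e-04), against the nearest families (-0.152) and without replicate 4 or 5 at 7 months (-0.135 to 0.372 over all samples left out).

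J genes called higher and lower, 12 and 11, were 4 and 23 with TMM, 0 and 19 by summed counts (0 higher also at an unadjusted p under 0.05), 1 and 24 with DESeq2 (13 and 10 with library totals in place of its size factors, which rested on TRAJ44 alone), and 5 and 1 against the nearest families without a filter, since the filter left none. The median log2 difference over J genes was -0.41, -1.37 with TMM, -3.78 by summed counts and -1.72 with DESeq2. Reversed J genes were TRAJ52 (-0.27), TRAJ56 (-1.97), TRAJ53 (-2.89), TRAJ38 (-4.13) and TRAJ50 (-1.51) by summed counts, where the median J gene was at -3.78. Against the nearest families TRAJ57 (-0.61), TRAJ56 (-0.85) and TRAJ53 (-0.16) reversed. With DESeq2's own size factors all values are relative to TRAJ44. There TRAJ52 (-0.15), TRAJ56 (-0.33), TRAJ53 (-0.024) and TRAJ50 (-0.26) lay below TRAJ44, which does not show that these J genes reversed. None reversed in DESeq2 with library totals. Of the 10 named as higher and the 10 named as lower, 4 and 10 kept the call with TMM, 1 and 10 with DESeq2, 10 and 10 with library totals in it, 0 and 9 by summed counts, 3 and 1 against the nearest families and 10 and 9 with a minimum of 10 counts. Leaving out each sample gave 11 to 13 higher and 10 to 12 lower. The difference in sharing was -17.8 percentage points, -3.27 by nucleotide sequence and -4.99 with matches to TRAV16D-DV11. Apart from the DESeq2 size factors, the cause of these changes was not tested. With 28 to 56 members per sample, 1 clonotype is a large part of any single J gene's share, and J gene use was not refitted at equal depth.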
